A study of Mus musculus with 20 samples.

Results

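The genes encoding the proteins of the cytosolic ribosome were followed in mouse heart RNA-seq. They were taken by name from the table of gene counts: symbols that start with Rpl or Rps, followed by p0 to p2 or by a number with at most a short suffix. Of 29339 rows, 84 matched, and 80 of them reached 10 counts in 3 or more of the 20 libraries. Of these 80 genes, 49 carry names of the large subunit (Rpl, Rplp) and 31 names of the small subunit (Rps). The 4 genes left out were Rpl39l with 0 to 9 counts per library, Rpl36al with 1 to 7, Rpl32l with 0 to 1, and Rpl6l with 0 to 13 and only 2 libraries at 10 or more. The gene closest inside the limit was Rpl24, with 1 to 11 counts and 4 libraries at 10 or more.

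A ribosome is built from a small subunit, which reads the mRNA, and a large subunit, which joins the amino acids. Each subunit holds ribosomal RNA and a fixed set of proteins, most of them encoded by 1 expressed gene each and mostly present in equal numbers. Their mRNAs usually begin with a C followed by a run of pyrimidines, the terminal oligopyrimidine (TOP) motif, through which mTORC1 and Larp1 control their translation. In heart and skeletal muscle the paralog Rpl3l can take the place of Rpl3, a core protein near the peptidyl transferase centre.

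The libraries came from hearts of C57BL/6 mice aged 8 weeks, either wild type (WT) or labelled TECRL-/- (knockout, KO). Tecrl encodes an enzyme-like protein of the endoplasmic reticulum, and loss of TECRL in people is a cause of catecholaminergic polymorphic ventricular tachycardia. Polyadenylated RNA was sequenced. By label there were 5 male WT, 5 male KO, 3 female WT and 7 female KO libraries. Their names fell into an S series (S1 to S12) and a WT/TKO series (WT1, WT2, TKO1 to TKO6), and what the name series stand for is not given in the sources used here. The labelled male WT libraries were WT1, WT2, S7, S8 and S9, and the male KO libraries S10, S11, S12, TKO5 and TKO6. The female WT libraries were S1 to S3, and the female KO libraries S4 to S6 and TKO1 to TKO4. The WT/TKO series held no female WT library. How the knockout allele was made, and which part of the heart was taken, were not given in the labels. The labels do not say that every library came from a separate mouse, so the p-values measure only the spread between these libraries, which may be technical. The study's methods name fewer mice in a group than there are libraries labelled male WT, male KO or female KO, and which libraries those mice gave is not stated.

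Total counts ran from 12540002 to 20038593 per library, and mitochondrial genes took 15.33% to 30.42% of them. Heart muscle genes were high in all libraries, with a median of 2071 FPKM (fragments scaled to gene length and library size) for Myh6 and 977.3 FPKM for Tnnt2. RNA of the targeted gene was at like levels in both genotype labels. Tecrl stood at 34.97 ± 7.94 FPKM (SD, n = 5) in male WT and 35.45 ± 5.46 (n = 5) in male KO, and at 33.09 ± 0.240 (n = 3) in female WT and 37.07 ± 3.92 (n = 7) in female KO. On the log2 scale the KO libraries differed from WT by 0.019 in labelled males and by 0.225 in labelled females (edgeR adjusted p = 0.992 and 0.4), and whether the counted exons lie inside the altered part of the gene was not given, so this does not check the genotype labels. Sex-linked genes went against the label in 6 libraries: S4 to S6, labelled female KO, expressed Y-linked genes, and S7 to S9, labelled male WT, expressed Xist and no Y-linked gene. Whether these libraries carry each other's labels, genotype included, was not tested. Within the S series the genotype label and the sex-linked expression therefore cannot be told apart. The summed level of 6 atrial marker genes also set libraries apart. It was over 100 CPM (counts scaled to library size) in 7 S libraries, from 261.3 CPM in S5 to 7609 CPM in S7, and 11.18 to 45.73 CPM in the other 13.

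Start-site sequences are shown first, since the pyrimidine run at the start of the mRNA is the mark of the TOP motif. A C exactly at the annotated start followed by at least 4 C or T was found in 13 of the 59 genes matched. A longer run, by the rule below, was found within 20 bases on either side of the start in 30. A run that lies wholly before the start is outside the mRNA as annotated. RefSeq windows on GRCm38.p6, of 250 bases before and 50 bases after the start, were matched for 59 of the 80 genes, with 71 windows in all. A C followed by at least 7 C or T within 20 bases of the annotated start was found in 43.7% of these windows, on the coding strand, against 12.6% of the 32851 windows of all genes. A C exactly at the start followed by at least 4 C or T was found in 18.3% against 2.51%, and these hits can overlap those of the longer run. On either strand, CCGGAAG, the core read by ETS factors, was in 33.8% of the windows of ribosomal protein genes and in 8.86% of all windows. AAGATGGC, a YY1 core, was in 11.3% against 2.75%, GGGCGG was in 59.2% against 35.7%, and TATAAA was in 9.86% against 13.6%. These matches describe the letters in the windows only. The 6 windows of 30 bases, 20 before and 10 from the start, shown here are on the coding strand with the longest run of C and T in capitals. Rpl35, Rpl19, Rpl27a and Rpl38 were among the genes with the clearest difference between the name series, and Rpl3l and Rpl22l1 are tissue-restricted or alternative paralogs. Windows of other genes with a clear difference, which had shorter runs, are not printed, so the printed ones do not stand for all such genes.
Rpl35 (chr2:39005122-39005151, minus strand): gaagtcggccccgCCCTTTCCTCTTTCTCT
Rpl19 (chr11:98026904-98026933, plus strand): gggcttgggCTCTCCCCTTCgcagataatg
Rpl27a (chr7:109519175-109519204, plus strand): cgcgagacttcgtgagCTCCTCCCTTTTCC
Rpl38 (chr11:114668560-114668589, plus strand): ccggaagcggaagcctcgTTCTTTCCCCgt
Rpl22l1 (chr3:28805488-28805517, plus strand): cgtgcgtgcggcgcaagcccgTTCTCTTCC
Rpl3l (chr17:24727806-24727835, plus strand): cagctgagtgTTCTagctctgtcatttgac
The longest run was 17 bases in Rpl35, 14 in Rpl27a, 11 in Rpl19, 10 in Rpl38 and 9 in Rpl22l1. The run printed for Rpl19 ends at the last base before the annotated start, so it is not part of an mRNA that begins there. In the window of Rpl3l it was 4 bases. The other annotated start of Rpl19, at the beginning of the annotated gene, with its window at chr11:98026690-98026719, had a longest run of 5. The window of Rps12, also called lower in WT/TKO, had 2.

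The ribosomal protein genes were among the most abundant transcripts of the heart. Their median FPKM over the 20 libraries had a middle value of 169.8, 57 genes were above 100 FPKM, and 70 lay in the top 5% of the 15187 genes that passed the filter on counts. The highest were Rplp1, an acidic protein of the P stalk that recruits elongation factors, at 1376 FPKM, the large-subunit protein gene Rpl36 at 1093 FPKM and the small-subunit protein gene Rps15 at 739.4 FPKM. The lowest were Rpl24 at 0.4078 FPKM, Rps10 at 0.8078 FPKM and Rpl13a at 2.673 FPKM. The exons of these 3 genes overlapped another annotated gene. Rpl24 shared exons with Gm28037, Rps10 with Gm15420 and RPS10-NUDT3, and Rpl13a with Gm45713, Mir5121 and Snord33. Of the 100-base stretches in their exons, 80.1%, 61.8% and 55.2% respectively were also found in another gene, so the authors' counting could have left such reads out or split them. Levels compared between genes are therefore uncertain for the 37 genes whose exons overlapped another gene and the 26 that shared over 50% of their 100-base stretches. Across genes, the shared percentage and the median FPKM had a Spearman rho of 0.018, where the genes share the same libraries. Rows of named pseudogene copies (symbols ending in -ps and a number) numbered 162, of which 39 passed the filter, and together held 947 to 2957 counts per library.

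Most of the genes varied together from library to library. The SD of their log2 CPM over the 20 libraries had a median of 0.249, from 0.13 in Rps13 to 0.967 in Rpl23a. For 43 of the 80 genes, the level across the 20 libraries had a Pearson correlation over 0.9 with the mean of the other members, a description in which all points share library size and scaling. The correlation was negative for 2 genes, at -0.412 for Rpl3l and -0.22 for Rpl24. It was 0.032 for Rps4l, annotated as a transcribed processed pseudogene, and 0.367 for Rpl7l1. On the log2 scale relative to each gene's mean, the medians over the genes were highest in S2, S7 and S6, at 0.364, 0.332 and 0.292, and lowest in TKO2, at -0.457.

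**Figure D1:**
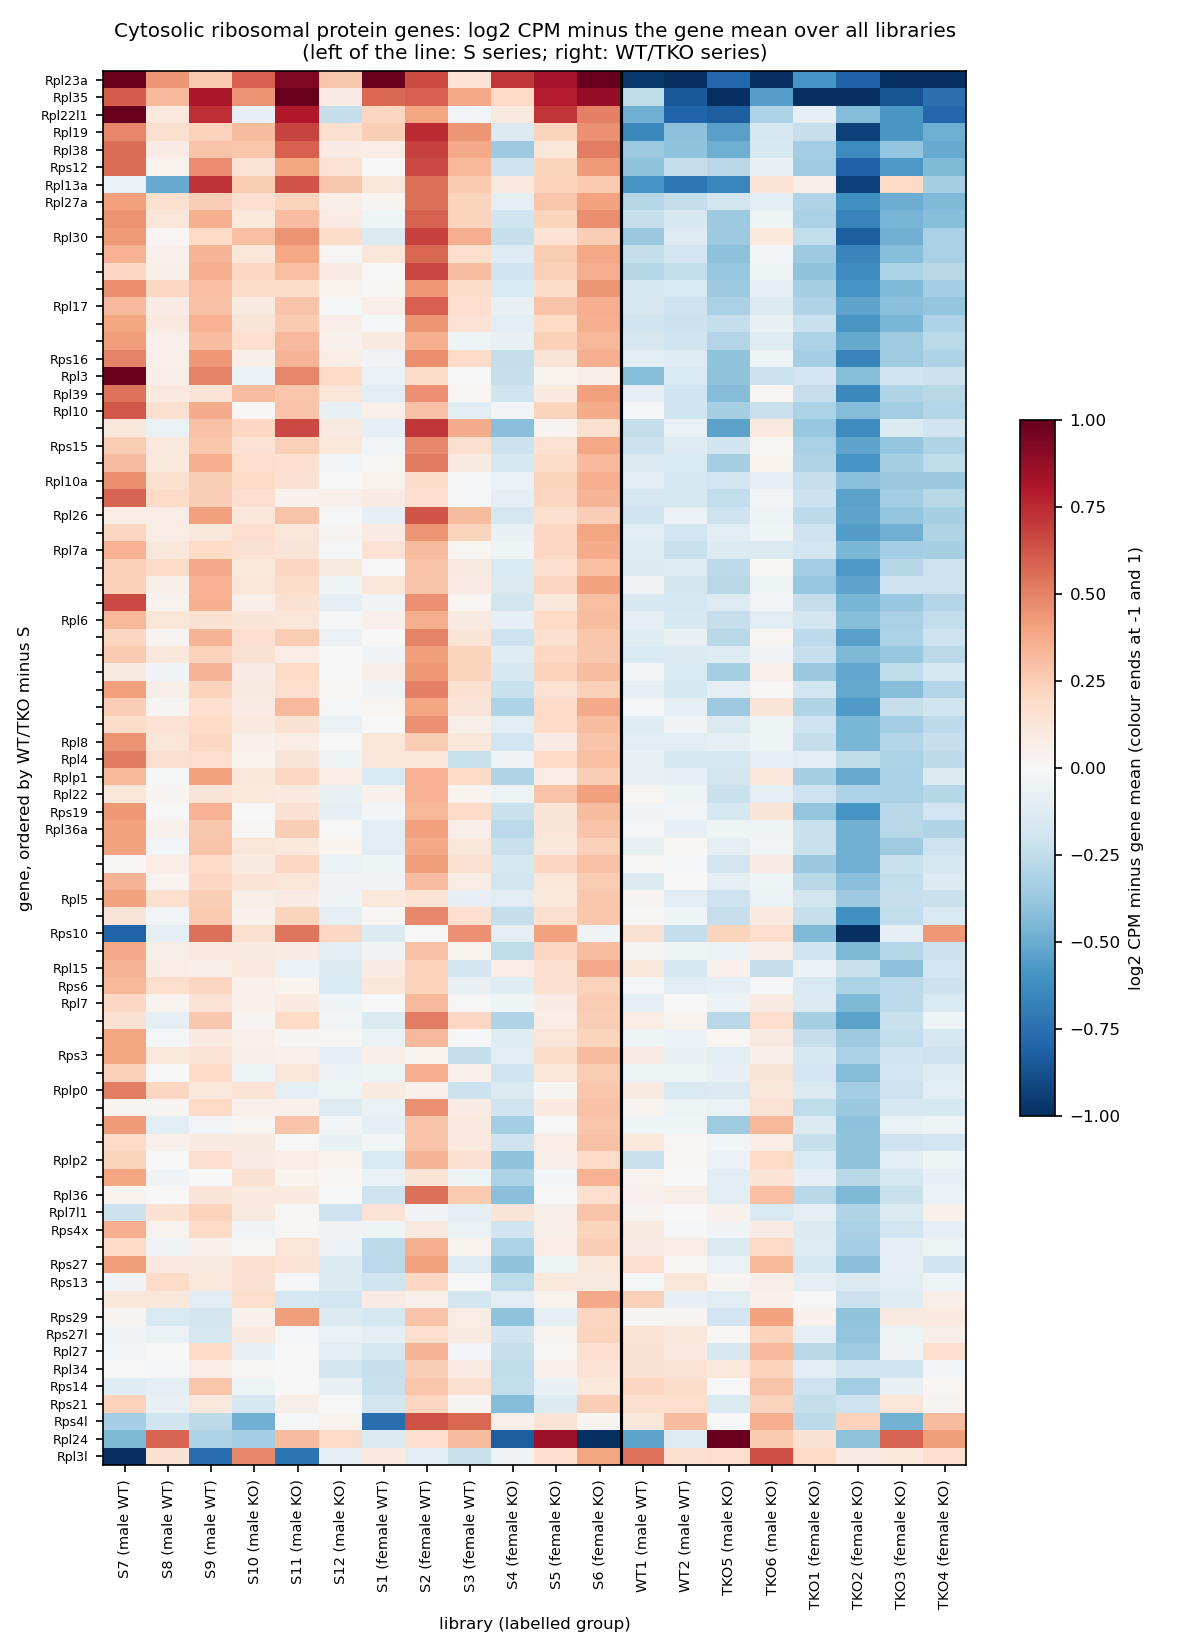
Level of each of the 80 ribosomal protein genes (vertical axis, ordered by the difference between the name series) in each of the 20 libraries (horizontal axis, with the labelled group), as log2 CPM minus the gene's mean, red above and blue below, with colours ending at -1 and 1, and names printed for genes described in the text. The medians over the genes run from -0.181 to 0.364 in the S libraries, left of the line, and from -0.457 to 0.020 in the WT/TKO libraries, and the bottom row, Rpl3l, is blue in S7, S9 and S11.

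The 80 genes took 2.374% to 4.407% of the counts outside mitochondrial genes. In the male WT libraries the percentage was 2.965 in WT1, 3.21 in WT2, 4.272 in S7, 3.391 in S8 and 4.22 in S9. In male KO it was 3.513 in S10, 3.924 in S11, 3.621 in S12, 3.01 in TKO5 and 3.312 in TKO6. The labelled groups overlapped, at 3.61 ± 0.599 (SD, n = 5) in male WT and 3.48 ± 0.342 (n = 5) in male KO. In female WT it was 3.239 in S1, 4.407 in S2 and 3.81 in S3, and in female KO it ran from 2.374 in TKO2 to 3.92 in S6. By name series it was 3.75 ± 0.426 (n = 12) in S and 2.96 ± 0.282 (n = 8) in WT/TKO, and 10 of the 12 S libraries, all but S1 and S4, lay above every WT/TKO library. In bulk tissue, fewer cells that make much of a transcript and less of that transcript per cell cannot be told apart.

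**Figure D2:**
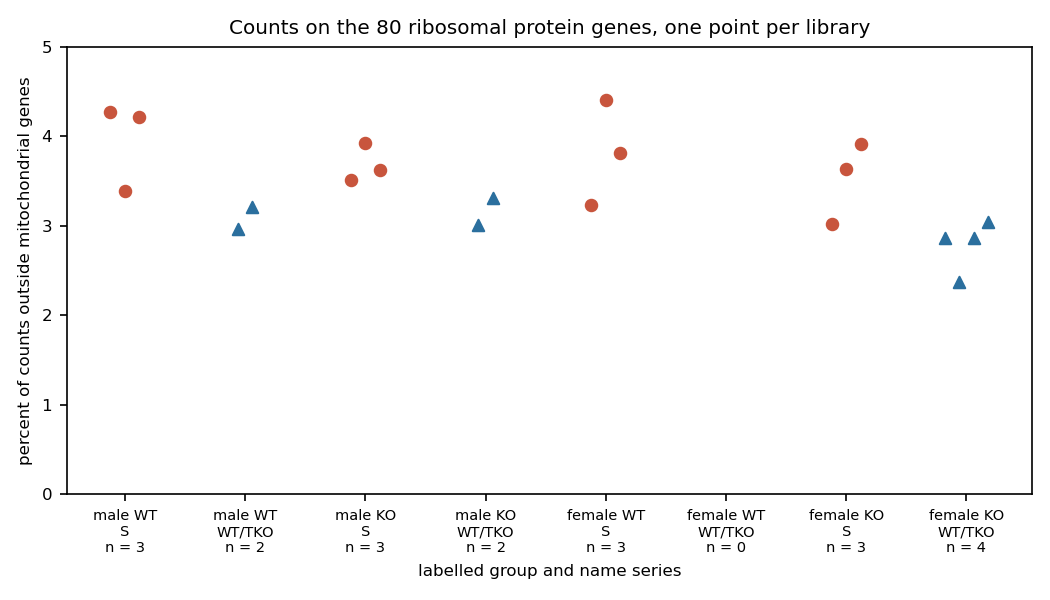
Percent of counts outside mitochondrial genes that fell on the 80 ribosomal protein genes (vertical axis), 1 point per library, by labelled group and name series (horizontal axis; circles for S, triangles for WT/TKO). The WT/TKO libraries sit between 2.374 and 3.312 and the S libraries between 3.021 and 4.407, and no female WT library belongs to WT/TKO.

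Rpl3l was expressed above Rpl3 in 17 of the 20 libraries, per length. Rpl3l lies at chr17:24727820-24736143 on the plus strand and Rpl3 at chr15:80077791-80091868 on the minus strand (GRCm38). In male WT, Rpl3l stood at 205 FPKM in WT1, 174.4 in WT2, 66.19 in S7, 174.9 in S8 and 105.1 in S9. In the same libraries Rpl3 stood at 54.66, 73.76, 193.4, 85.88 and 132.6 FPKM. S7 and S9 thus had low Rpl3l with high Rpl3, and the other 3 libraries the reverse. In male KO, Rpl3l stood at 216.3 FPKM in S10, 101.5 in S11, 167.6 in S12, 173.8 in TKO5 and 231.7 in TKO6, and Rpl3 at 78.2, 124.1, 105.9, 60.96 and 67.09 FPKM. S11 was the library with more Rpl3 than Rpl3l, and the labelled male groups overlapped for both genes. In female WT, Rpl3l stood at 173 FPKM in S1, 137.3 in S2 and 142.5 in S3, against Rpl3 at 80.52, 87.53 and 86.99 FPKM. In female KO, Rpl3l had a lowest, median and highest value of 162, 178 and 206 FPKM, and Rpl3 of 59.5, 74.9 and 85.6 FPKM, so that the groups overlapped for each gene alone.

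The ratio of Rpl3l to Rpl3 was 0.342 in S7, 0.793 in S9 and 0.818 in S11, and 1.57 to 3.75 in the other 17 libraries. These 3 libraries had the highest atrial marker sums, 7609, 6153 and 7410 CPM, and across the 20 libraries the Spearman rho of Rpl3l with the atrial sum was -0.529 (-0.476 over the 12 S libraries) and that of Rpl3 was 0.767 (0.748). The median over the 80 genes was 0.605 (0.399), a description with shared libraries. The part of atrial tissue in the ratio was not tested. The labelled groups were compared by an exact two-sided permutation test of the log2 ratio, with 20 tests over 5 pairs of paralogs and 4 comparisons. In labelled males the ratio was 0.57 log2 higher in KO than in WT (exact p = 0.46, adjusted p = 0.708), 0.90 within the S series and 0.076 within WT/TKO, and -0.55 without S4 to S9. Without S7 alone the male difference was 0.068. In labelled females it was 0.43 log2 higher in KO (1.352-fold, exact p = 0.0167, adjusted p = 0.111), with an exact p of 0.0556 without S2 or without S3. Of the female WT libraries, S1 lay within the range of the KO libraries and S2 and S3 below it. The female difference was 0.34 (exact p = 0.2) within the S series, where 3 libraries against 3 cannot reach an unadjusted p under 0.05, and 0.51 (exact p = 0.0286) without S4 to S9, which sets TKO1 to TKO4 against S1 to S3. Over all libraries it was 0.57 (exact p = 0.132, adjusted p = 0.44), and 0.041 without S4 to S9. It was 0.261 without S7 alone, and its exact p was 0.0329, before adjustment, without WT1 or without S11. Within the S series it was 0.62 and within WT/TKO -0.14. Between the name series the ratio was 0.90 log2 higher in WT/TKO than in S (1.86-fold, exact p = 0.00621, adjusted p = 0.0621). None of these Rpl3l differences passed the adjustment. Without the 7 S libraries of high atrial marker level the series difference was 0.55 (exact p = 0.000777, before adjustment).

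**Figure D3:**
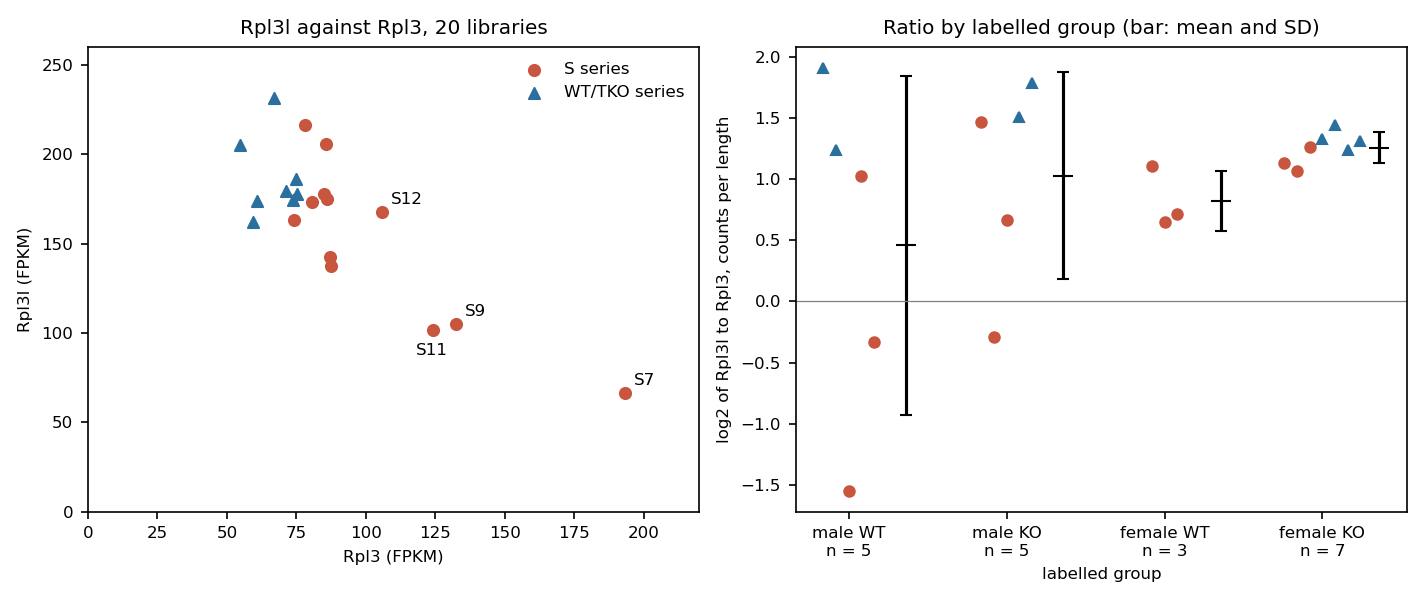
Left, Rpl3l (vertical) against Rpl3 (horizontal), both in FPKM, 1 point per library, with the S series as circles and the WT/TKO series as triangles. Right, log2 ratio of Rpl3l to Rpl3 in counts per length by labelled group, with the mean and SD as a bar. S7, S9 and S11 lie at the lower right, with ratios of 0.342, 0.793 and 0.818, and the SD of the male groups is several times that of the female groups.

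The other paralog pairs had low levels relative to their parent, except Rps27l. Rpl22l1, a paralog of the large-subunit gene Rpl22, stood at a median of 2.837 FPKM over the 20 libraries and ran from 1.564 FPKM in TKO5 to 7.004 FPKM in S7. The ratio of Rpl22l1 to Rpl22 had a mean of -4.79 log2 (SD 0.289, n = 8) in WT/TKO and -4.19 (SD 0.367, n = 12) in S, a difference of -0.60 (0.661-fold, exact permutation p = 0.00109, adjusted p = 0.0218). It was the one ratio of the 20 that passed the adjustment, and it was -0.44 (exact p = 0.0101, before adjustment) without the 7 S libraries of high atrial marker level and also -0.44 (exact p = 0.0157, before adjustment) without S4 to S9. Between KO and WT the ratio differed by -0.18 in labelled males, -0.07 in labelled females and -0.12 over all libraries, with adjusted p-values of 0.759, 0.763 and 0.75. Rps27l to Rps27, Rpl7l1 to Rpl7 and Rps4l to Rps4x differed by -0.06 to 0.252 log2 over the 4 comparisons, with exact p-values of 0.0667 to 0.867 and no adjusted p-value under 0.333. Exons of Rpl22l1 overlapped Gm33051, and Rpl3 shared 79.4% of its 100-base stretches with other genes while Rpl3l shared 0%.

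No ribosomal protein gene passed the test between the genotype labels. In labelled males, the quasi-likelihood test of edgeR, adjusted by Benjamini-Hochberg over 14481 genes, called 0 of the 79 ribosomal protein genes tested, 0 were under an unadjusted p of 0.05, and DESeq2 called 0. Over all genes tested, 0% were called by edgeR's adjusted p, 4.75% were under the unadjusted limit, and DESeq2 called 0.0997% of those to which it gave an adjusted p. The log2 fold changes of KO against WT ran from -0.276 to 0.317, with a median of -0.073 against -0.015 over all genes tested and a median standard error of 0.115. By sign 64 were lower and 15 higher. The lowest p belonged to the X-linked Rpl10, a protein that joins the large subunit late in its assembly. It stood at 195.7 FPKM in WT1, 192.3 in WT2, 389.7 in S7, 248.6 in S8 and 327.7 in S9, and in KO at 220.9 in S10, 290.2 in S11, 238.5 in S12, 173.4 in TKO5 and 179.8 in TKO6. The groups overlapped within the S series, and in the WT/TKO series both KO libraries lay below both WT libraries. The fold change was -0.27 (SE 0.128, edgeR adjusted p = 0.882). Rpl5, which carries the 5S RNA into the large subunit, had -0.195 (SE 0.105), and Rpl4, Rps6, the target of S6 kinase, and the X-linked Rps4x had -0.165, -0.163 and -0.154. With positive sign, Rpl13a had 0.317 (SE 0.252), Rpl3l 0.315 (SE 0.301), Rps10 0.273, Rps29 0.167 and Rpl19 0.122, each with an adjusted p of 0.882 or 0.883. Within the S series alone 0 of 79 genes were called, with a median of -0.118, and within WT/TKO alone 0 of 79, with a median of 0.002. Without S4 to S9, which leaves the WT/TKO libraries as the only WT, the count was 0 and the median 0.002.

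In labelled females the difference comes from the S libraries, 3 labelled WT and 3 labelled KO, because the WT/TKO series holds no female WT library. Of the 79 genes tested, edgeR called 0, 0 were under an unadjusted p of 0.05, and DESeq2 called 0, where edgeR called 0.0551% of the 14511 genes tested, 17.9% were under the unadjusted limit, and DESeq2 called 2.64%. The median was -0.081 against -0.021 over all genes tested, with 59 lower and 20 higher by sign and a median standard error of 0.166. Over the 79 genes the log2 fold changes ran from -0.437 to 0.25, with no adjusted p-value under 0.3. The median was -0.34 without the S libraries of high atrial marker level, where S4 was the one KO library left in the S series and was assumed to vary like the others, and -0.261 without the name series term, where 9 genes were under an unadjusted p of 0.05 against 20.8% of all genes. Among the genes with negative sign, Rpl36 had -0.312, Rpl19 -0.304, Rpl30 -0.291 and Rpl38 -0.284. With positive sign, Rpl3l had 0.25 (SE 0.136, edgeR adjusted p = 0.353), Rpl22l1 0.245, Rps3 0.175, Rpl15 0.146 and Rpl7l1 0.143. The adjusted p-values from edgeR were 0.438 to 0.632 for these 8 genes other than Rpl3l. Within the S series alone 0 of 79 genes were called, with a median of -0.083. Without S1, edgeR called 1 gene. The median turned to 0.069 without S2 and to 0.044 without S4, over a range of -0.18 to 0.069 when 1 library was left out. Without S4 to S9 this difference could not be estimated.

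Over all 20 libraries, with labelled sex and name series as terms, 0 of 80 genes were called by edgeR and 0 by DESeq2, and 0 were under an unadjusted p of 0.05, where the shares over all genes were 0% by edgeR, 0.0877% by DESeq2 and 4.93%. By sign 75 were lower and 5 higher, with a median of -0.083 against -0.011 over all genes. The lowest p-values with negative sign belonged to small differences: Rpl8 had -0.120 (SE 0.0783), Rps19, mutated in Diamond-Blackfan anaemia, -0.148 (SE 0.0977), and Rps16, Rps14 and Rpl26 -0.143, -0.134 and -0.141. The 5 with positive sign were Rpl24 with 0.196, Rpl3l with 0.191, Rpl13a with 0.181, Rps10 with 0.122 and Rps29 with 0.038. Each of these 10 genes had an edgeR adjusted p of 0.996. The median stood at -0.097 in the S series alone, 0.012 in the WT/TKO series alone and -0.113 without S4 to S9, with 0 of 79 genes called in each. The difference between the genotype effects in the labelled sexes, the interaction term, called 0 of 80 by edgeR and 0 by DESeq2, with 0 under an unadjusted p of 0.05, against 0%, 0.132% and 15.6% of all genes. Among the negative values of lowest p were Rpl36 with -0.403 (SE 0.211), Rpl19 with -0.412, Rpl30 with -0.413 and Rps29 with -0.337. The positive ones were Rpl10 with 0.321, Rpl4 with 0.263, Rpl22l1 with 0.570, Rps3 with 0.240 and Rpl5 with 0.189, and the edgeR adjusted p-values of these 9 genes ran from 0.35 to 0.51. The interaction median of -0.064 turned to 0.098 without S2 and to 0.012 without TKO6. Without S4 to S9 the count was again 0 of 79.

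**Figure D4:**
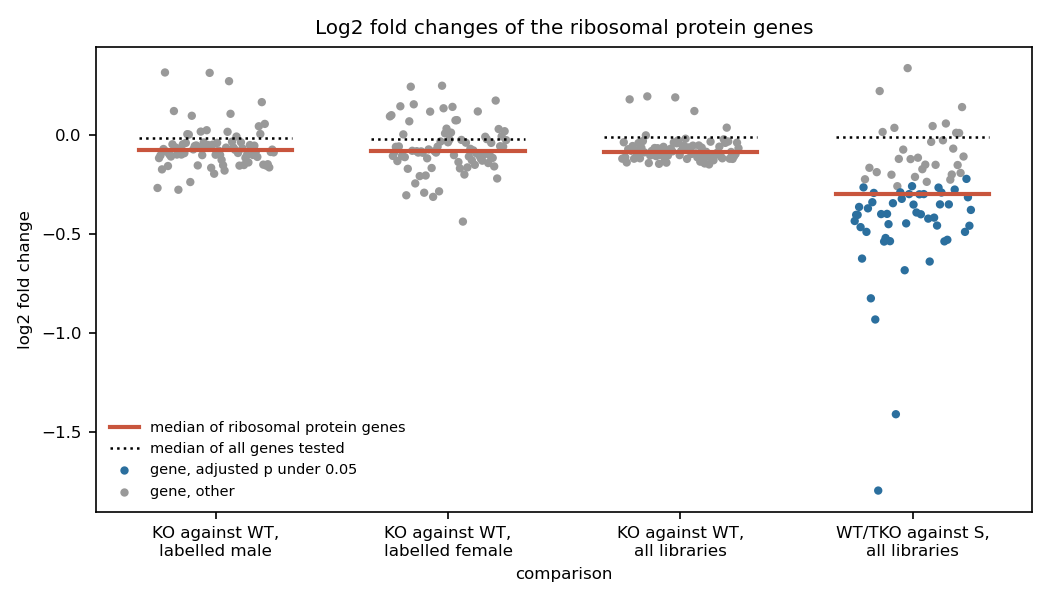
Log2 fold change (vertical axis) of each ribosomal protein gene in 4 comparisons (horizontal axis), blue where the edgeR adjusted p was under 0.05 and grey otherwise, with the median of the ribosomal protein genes as a solid line and that of all genes tested as a dotted line. The 3 genotype comparisons hold no blue point, with medians of -0.073, -0.081 and -0.083, and the comparison of the name series has its median at -0.298 and 49 blue points.

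Calls in these genes were made between the name series. In the fit with genotype and labelled sex as terms, edgeR called 49 of the 80 genes lower in WT/TKO than in S and 0 higher, and DESeq2 called 51 and 0. Over all 15187 genes, edgeR called 8.92% lower and 7.53% higher, and DESeq2 called 11.2% lower. Without the 7 S libraries of high atrial marker level the count fell to 2, with a median of -0.198, where 0.593% of all genes tested were called lower. Among labelled male WT libraries alone the count was 0, with a median of -0.318, in a fit of fewer libraries. In the fit of all libraries the median log2 fold change was -0.298, against -0.008 over all genes. It was -0.104 over the 3087 genes with lengths within the interquartile range of the members' lengths, of which 431 were called lower. Both subunits held called genes, 33 of 49 in the large and 16 of 31 in the small subunit, with medians of -0.339 and -0.236. Among the 33 genes without exon overlap and with at most 50% of their 100-base stretches shared, 16 were called lower, with a median of -0.258. Among the 37 with exon overlap, 26 were called lower, with a median of -0.363. Of the genes with a matched start-site window, 19 of 30 with the long pyrimidine run were called lower (median -0.324), and 15 of 29 without it (median -0.289). By the rule of a C exactly at the start the order was the other way. There 6 of 13 genes with it were called lower (median -0.236), and 28 of 46 without it (median -0.306).

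Rpl23a, a protein at the exit of the nascent chain tunnel, showed the largest difference. Its FPKM ran from 2.64 to 5.91 with a median of 4.30 in WT/TKO, and from 10.4 to 23.1 with a median of 14.6 in S. All 8 WT/TKO libraries lay below all 12 S libraries, and the fold change was -1.80 log2 (SE 0.183, edgeR adjusted p = 5.64e-06). Its exons overlap Snord42b and Tlcd1, and over 50% of its 100-base stretches are shared with other genes. Rpl35, whose start window is printed above and which also sits at the tunnel exit, had a lowest, median and highest FPKM of 5.72, 9.19 and 12.2 in WT/TKO and 19.4, 24.0 and 38.8 in S. The ranges did not overlap, and the fold change was -1.41 (SE 0.154, edgeR adjusted p = 1.14e-05). Rpl19 ran from 56.3 to 93.4 FPKM (median 80.2) in WT/TKO and from 106 to 190 FPKM (median 144) in S, again without overlap, with -0.83 (SE 0.12, edgeR adjusted p = 0.000264). Rpl27a, at 109.5 ± 11.2 FPKM (SD, n = 8) against 171 ± 20.8 (n = 12), had -0.54 (SE 0.0911), and Rpl38, linked to axial patterning in mice, at 203 ± 18.8 against 352 ± 69.8, had -0.68 (SE 0.119). In all, 9 of the 80 genes had every WT/TKO library below every S library in CPM, among them Rpl10a, Rpl17, Rpl19, Rpl23a, Rpl27a, Rpl35, Rpl6 and Rpl7a. The reverse order was found for 0 genes, where 0.639% and 0.369% of all genes separated in the one and the other direction. Rps12 (-0.64) was among the called genes of the small subunit.

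Among the smaller classes, 1 of 3 P stalk genes and 3 of 4 X-linked genes were called lower, where 49 of the 80 genes and 8.92% of all genes tested were. With so few genes, neither class can be set apart from the 80. Of the P stalk genes, Rplp1 was called lower at 1184 ± 144 FPKM (SD, n = 8) in WT/TKO against 1574 ± 259 (n = 12) in S, with -0.298 (SE 0.0949, edgeR adjusted p = 0.0367). This call was lost in 10 of the 20 fits that left out 1 library (WT1, WT2, S5, S6, S9, S11, TKO1, TKO2, TKO3 or TKO5), with edgeR adjusted p-values of 0.0502 to 0.0842. Rplp0 had -0.172 and Rplp2 -0.149, with edgeR adjusted p-values of 0.185 and 0.291. Of the X-linked genes, Rpl10 (-0.43), Rpl39 (-0.45) and Rpl36a (-0.29) were called lower and Rps4x (-0.11, edgeR adjusted p = 0.339) was not. The call of Rpl36a was lost in 7 of the 20 fits (without WT1, WT2, S5, S6, S11, TKO2 or TKO3), with edgeR adjusted p-values of 0.0516 to 0.0721, and those of Rpl10 and Rpl39 in 0. Without the S libraries of high atrial marker level none of the 4 was called. In CPM the levels of all 4 overlapped between the series. For Rpl36a they ran from 58.2 to 79.7 FPKM in WT/TKO against 73.8 to 126 FPKM in S. Rpl3 was called lower, at 67.2 ± 7.95 FPKM (n = 8) against 102 ± 34.2 (n = 12), with -0.45 (SE 0.132, edgeR adjusted p = 0.0256), a call lost without WT1, WT2 or S11 (edgeR adjusted p-values of 0.058 to 0.0868). Positive signs were found in 9 genes, none called: Rpl3l had 0.34 (SE 0.182, edgeR adjusted p = 0.204), Rpl24 0.22, Rps4l 0.14, Rps21 0.059 and Rps14 0.046, followed by Rpl34, Rpl27, Rps27l and Rps29.

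**Figure D5:**
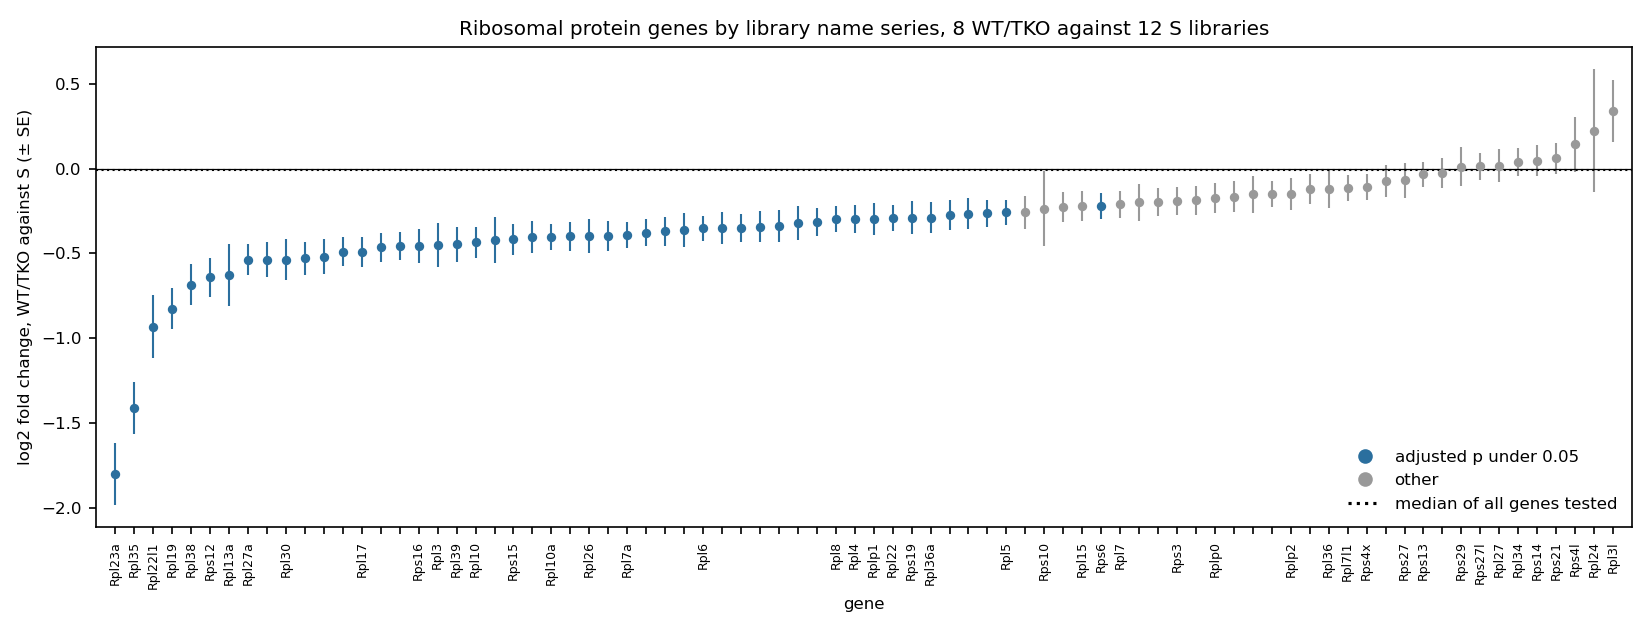
Log2 fold change of WT/TKO against S with its standard error (vertical axis) for each of the 80 ribosomal protein genes, ordered by size (horizontal axis, names printed for genes described in the text), blue where the edgeR adjusted p was under 0.05. Rpl23a at -1.797 and Rpl35 at -1.411 stand below the rest, 71 of the 80 genes lie below 0, and Rpl3l is at the other end at 0.339.

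Markers of other cells moved with the name series. All 6 atrial markers, 6 of the 6 adipocyte markers tested and 7 of 8 macrophage markers were called lower in WT/TKO by edgeR, as were 1 of 5 red blood cell markers and 1 of 5 smooth muscle and pericyte markers, while 2 of 8 cardiomyocyte markers and 1 of 6 endothelial markers were called higher. DESeq2 called 3 of the adipocyte markers lower. The atrial sum ranged from 11.18 to 20.86 CPM in WT/TKO and from 15.91 to 7609 CPM in S, and the atrial marker Bmp10 had a median of 0 FPKM over all libraries. The adipocyte sum ranged from 0.4028 to 1.89 CPM against 0.9567 to 933.6 CPM, the red blood cell sum from 156.2 to 528.4 CPM against 28.43 to 1782 CPM, and the macrophage sum from 220 to 272.2 CPM against 282.5 to 495.8 CPM, the last without overlap. The part of these cells in the difference between the name series was not tested. Without the 7 S libraries of high atrial marker level, 0.593% of the 14669 genes tested were called lower, and the 2 ribosomal protein genes among them were Rpl23a with -1.60 (edgeR adjusted p = 0.0176) and Rpl35 with -1.01 (edgeR adjusted p = 0.03). Among libraries labelled KO alone 33 genes were called lower, where 5.39% of all genes tested were, with a median of -0.289. Among labelled male WT libraries alone, WT1 and WT2 against S7 to S9, 0 were called by edgeR and 10 were under an unadjusted p of 0.05, where 10.6% of all genes tested were, with a median of -0.318. The share of all genes called by adjusted p in this small fit was not taken, so the 0 is not a result particular to these genes. Without S4 to S9, 41 of 79 were called lower, where 10.4% of all genes tested were.

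Genes that work with the ribosome were read from lists, against 8.92% of all genes called lower and 7.53% called higher in WT/TKO. Of 4 ribosomal proteins named otherwise, 4 were called lower in WT/TKO by edgeR, among them Rpsa with -0.52, Fau with -0.38 and Rack1 with -0.35. Of 13 elongation factors and other TOP mRNAs, 3 were called lower, Eef1a1 with -0.55, Tpt1 with -0.30 and Eef1b2 with -0.27, and 0 higher, while DESeq2 called 7 lower. Of 39 initiation factors, 4 were called higher (Eif3a 0.34, Eif4e 0.32, Eif4a2 0.27 and Eif6 0.25) and 2 lower (Eif3f -0.28 and Eif3k -0.24), and DESeq2 called 4 and 4. Of 13 regulators of TOP mRNAs, 3 were called higher: Deptor (0.40), an inhibitor of mTOR, Tsc1 (0.31), a brake on mTORC1, and Larp1 (0.26), which binds the TOP motif. Of 40 ribosome biogenesis genes 0 were called by edgeR, 2 by DESeq2, and 6 were lower at an unadjusted p under 0.05, where 17% of all genes were, with Emg1 (-0.20) and Nhp2 (-0.31) closest. Of the 39 named pseudogene rows 21 were called lower, with a median of -0.692. None of these lists held a gene called by edgeR between the genotype labels, in labelled males or in labelled females, while DESeq2 called 1 of the 13 regulators of TOP mRNAs higher in labelled female KO. The lowest unadjusted p in labelled males was that of Eif2s3x (-0.784), the X-linked gene of an initiation factor subunit, and in labelled females that of Eif4ebp1 (0.578), the repressor of Eif4e, with edgeR adjusted p-values of 0.882 and 0.142. The male comparison includes S7 to S9, labelled WT, which expressed Xist and no Y-linked gene. Whether the value of Eif2s3x follows the genotype label or the sex-linked expression was not tested.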

How the data were processed

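The study sequenced poly(A) RNA in 20 libraries from mouse hearts. The authors deposited raw counts per gene and FPKM (fragments scaled to gene length and library size) for each library. The submitters' processing notes name HISAT2, HTSeq 0.6.1p2, DESeq2 1.26.0 and GRCm38, without their roles, and the strand setting of the counting was not given in the sources used here. The count of genes was tested with edgeR 4.0.16 (R 4.3.3), by TMM scaling, glmQLFit and glmQLFTest, on genes reaching 10 counts in 3 or more libraries of the fit, with Benjamini-Hochberg adjustment over all genes tested and a threshold of 0.05. Genotype was fitted within each labelled sex with name series as covariate, over all libraries with labelled sex and name series, and as an interaction. The deposited FPKM values were used for levels. Paralog ratios were log2 ratios of counts per length with 0.5 added, under an exact two-sided permutation test. Groups came from the labels. Replicates were checked for identity: in 44 within-group pairs the lowest chi-square per degree of freedom was 11.45, so every library was counted once. DESeq2 1.42.0, upper-quartile scaling, other filters, limma 3.58.1 on log2(FPKM + 1), each library left out in turn, a Y-linked covariate and single name series were alternatives. Fits without the 7 S libraries of high atrial marker level or without S4 to S9, and with the title number as a block, were chosen after seeing the data. The edgeR, DESeq2 and limma steps were tested on simulated data. Gene overlap and shared 100-base stretches were computed from GENCODE M21 exons, and start windows came from RefSeq.

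The members and lists were chosen with earlier results of these data known. The named genes were the paralog pairs with both genes past the filter, the P stalk and X-linked genes, the 3 highest and 3 lowest by median FPKM, per comparison the 5 with the lowest p in each direction, the genes left out, and in the lists those with an adjusted p under 0.05 or the 2 with the lowest p. Depth limits Rpl24, Rps10 and Rpl13a, whose median counts were 6.5, 29 and 84.5. Some genes that this rule names are not reported here.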

Additional observations from a re-analysis of the deposited data

Results flagged for a closer look

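Among 66 groups of libraries examined over 22 values, 2 held a library far from the others by Dixon's criterion, where chance flags about 1 in 20 groups. Rps4l stood at 37.1 FPKM in WT2, against 26.03 to 28.98 FPKM in the other 4 male WT libraries. The log2 ratio of Rpl7l1 to Rpl7 was -4.195 in S7, against -3.76 to -3.65 in the other 4 male WT libraries. S7 is also the library with the highest atrial marker sum, 7609 CPM, and the lowest ratio of Rpl3l to Rpl3, 0.342. The part of these in the value was not tested.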

How the results depend on the processing

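The main results were the counts of called genes, the medians of the ribosomal protein genes and the Rpl3l to Rpl3 differences. Of 357 alternative values of these, 13 changed sign, 16 moved beyond the replicate spread, by over 1.5 times or across the threshold, and 328 did neither. Changes in single named genes and in the other ratios, listed below, are not part of this tally. The title numbers recur across the name series but do not pair libraries: the deviations of the 10 same-numbered pairs correlated at -0.274 to 0.295, with 3 pairs over 0.1. With the title number as replicate block, edgeR called 0 of 80 genes between the name series (median -0.046), 0 of 79 in labelled females (median -0.458) and 0 of 80 over all libraries (median -0.471), and in the interaction 0 of 80 (median 0.034). The share of all genes called in these fits was not taken, and the block adds many terms. The counts of 0 are therefore not a result particular to these genes. In labelled males no paired analysis was possible because the groups share no title number. In labelled females the median of the ribosomal protein genes was -3.53 with the Y-linked level as covariate, which nearly coincides with genotype there, and -0.34 without the S libraries of high atrial marker level. In both that fit and the interaction S4 was then the one labelled female KO library of the S series, assumed to vary like the others. The interaction median was -0.36 without those libraries and -0.29 without S4 to S9. The count lower in WT/TKO was 0 among labelled male WT libraries alone and 2 without the S libraries of high atrial marker level, where fewer libraries were tested, and 36 (without WT2) to 51 when 1 library was left out. It was 37 without the filter on low counts, 59 with limma and 53 with upper-quartile scaling. Leaving out 1 library gave 0 to 1 called genes in labelled females, and moved the Rpl3l to Rpl3 difference over 0.349 to 0.576 in labelled females and over 0.261 (without S7) to 0.754 (without WT1) over all libraries, where its exact p fell to 0.0329 without WT1 or without S11. In labelled females it was 0.34 in the S series alone.

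The medians of the ribosomal protein genes changed sign between the genotype labels in labelled males (0.002 in the WT/TKO series alone and without S4 to S9, 0.013 without the S libraries of high atrial marker level), in labelled females (0.069 without S2, 0.044 without S4), over all libraries (0.012 in the WT/TKO series alone) and in the interaction (0.041 with limma, 0.056 in the S series alone, 0.012 without TKO6, 0.098 without S2). The Rpl3l to Rpl3 difference turned to -0.55 in labelled males without S4 to S9 and to -0.14 over the WT/TKO series. The cause of the changes of sign was not tested. With the replicate block, Rpl3, Rplp0, Rplp1, Rplp2 and Rps4x stood at 0.032, 0.049, 0.16, 0.37 and 0.12 between the name series, where Rpl3 and Rplp1 were called lower without it. Rpl3l, Rpl35, Rplp0, Rps4x and Rpl10 stood at 0, -0.58, -0.25, -0.33 and -0.19 in labelled females, Rpl3l and Rpl23a at -0.038 and 0.65 over all libraries, and Rpl3l at 0.24 in the interaction. The other changes of sign listed here were in values not called in either fit. In labelled males, Rplp0 stood at 0.013 and Rpl36a at 0.008 in the WT/TKO series alone, Rplp0 at 0.024, Rplp1 at 0.063 and Rpl36a at 0.019 without the S libraries of high atrial marker level, and Rplp0 at 0.013 and Rpl36a at 0.009 without S4 to S9. In labelled females, Rplp0, Rps4x and Rpl10 stood at -0.54, -1.03 and -3.69 with the Y-linked covariate, Rpl23a, Rpl35 and Rpl10 at -0.63, -0.57 and -0.18 without the name series term, Rpl35, Rplp0, Rps4x and Rpl10 at -0.32, -0.12, -0.19 and -0.12 without the S libraries of high atrial marker level, and Rpl39 at 0.16 without S2. Over all libraries, Rpl3l and Rpl3 stood at -0.055 and 0.097 with the Y-linked covariate and at -0.067 and 0.10 without S4 to S9, and Rpl19, Rplp0, Rplp1, Rplp2 and Rpl36a at 0.19, 0.024, 0.062, 0.18 and 0.020 in the WT/TKO series alone. In the interaction, Rpl23a and Rpl35 stood at -0.56 and -0.51 without the name series term, Rpl3, Rplp0 and Rps4x at -0.070, -0.030 and -0.17 without the S libraries of high atrial marker level, and Rplp0 and Rps4x at -0.16 and -0.19 without S4 to S9. The Rpl22l1 to Rpl22 difference was 0.54 in labelled males without S4 to S9, 0.17 in labelled females of the S series and 0.37 over the WT/TKO series. In labelled males, the Rps27l to Rps27 difference was -0.043 in the WT/TKO series and -0.064 without S4 to S9, and the Rps4l to Rps4x difference was -0.19 without S4 to S9.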
